A study of Populus tremula x Populus alba with 6 samples.

Results

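Shallow distal intergenic peaks are the peaks called for PtrbHLH011 that lay away from annotated gene starts and had low read coverage at the summit. They were chosen by the authors' annotation, Distal Intergenic, and by a pileup, the read coverage at the summit, of under 20. Of 36015 peaks in both deposited lists, 7710 (21.4%) met this rule. They comprised 4092 of 18975 peaks on the P. alba sequences (21.6%, exact 95% binomial interval 21.0 to 22.2%) and 3618 of 17040 on the P. tremula sequences (21.2%, 20.6 to 21.9%), the parental chromosome sets of the hybrid Populus tremula x Populus alba, called subgenomes here. They made up 79.9% and 78.8% of the distal peaks of the lists. Because 1780 of them on P. alba were paired with 1780 on P. tremula at matching positions, they stood for 5930 positions when each pair is counted once.

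The peaks came from chromatin immunoprecipitation sequencing (ChIP-seq), which recovers the DNA crosslinked to a protein. Mesophyll protoplasts, leaf cells without walls, transiently expressed PtrbHLH011-10xMyc, and the labels list 3 anti-Myc ChIP libraries and 3 input libraries without antibody, all from cells that carried this construct. No cells without the construct and no untagged factor were analysed here, and expression was transient and from introduced DNA, so binding of the native factor was not measured. The peak names carry 1 tag that matches no library label, so which library or pool lies behind the lists is not known. No spread between replicates could be computed, and every test below is over peaks and covers counting error within a list only. Where tests were run they were two-sided Fisher's exact tests, adjusted by Benjamini-Hochberg over 14 comparisons.

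PtrbHLH011 belongs to the basic helix-loop-helix (bHLH) family, whose members bind DNA as dimers, commonly at short palindromic sequences called E-boxes. The related Arabidopsis protein bHLH11 is known as a repressor in the iron deficiency response. Plant transcription factors are best known for sites close to gene starts, but sites in intergenic DNA, which in poplar also holds transposons and other repeats, are common in ChIP-seq lists. Distal sites can lie in enhancers, repeats or genes that an annotation lacks. No genome was used here, so that the sequences under the peaks are not shown.

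The members were selected on height, so heights, folds, q values and lengths are given as a description only. Most members stood close to the lowest height the caller accepted. The median member had a pileup of 7 reads in each list (25th to 75th percentile 6 to 10 reads), and fewer than 10 reads were found for 74.9% of members on P. alba and 73.6% on P. tremula. This was not particular to members. On P. alba fewer than 10 reads were found for 78.5% of all peaks. The share was 92.2% of promoter-class peaks, those near a gene start, of under 20 reads. The commonest height was 6 reads, with 1012 P. alba and 859 P. tremula members, followed by 7 reads with 754 and 675 and by 5 reads, the lowest height in either list, with 604 and 534. Just inside the limit, 48 P. alba and 62 P. tremula members had 19 reads, and just outside it 59 and 43 distal peaks had 20. There was no gap in height at the limit, so that shallow and deep distal peaks are 2 parts of a continuous range.

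**Figure D1:**
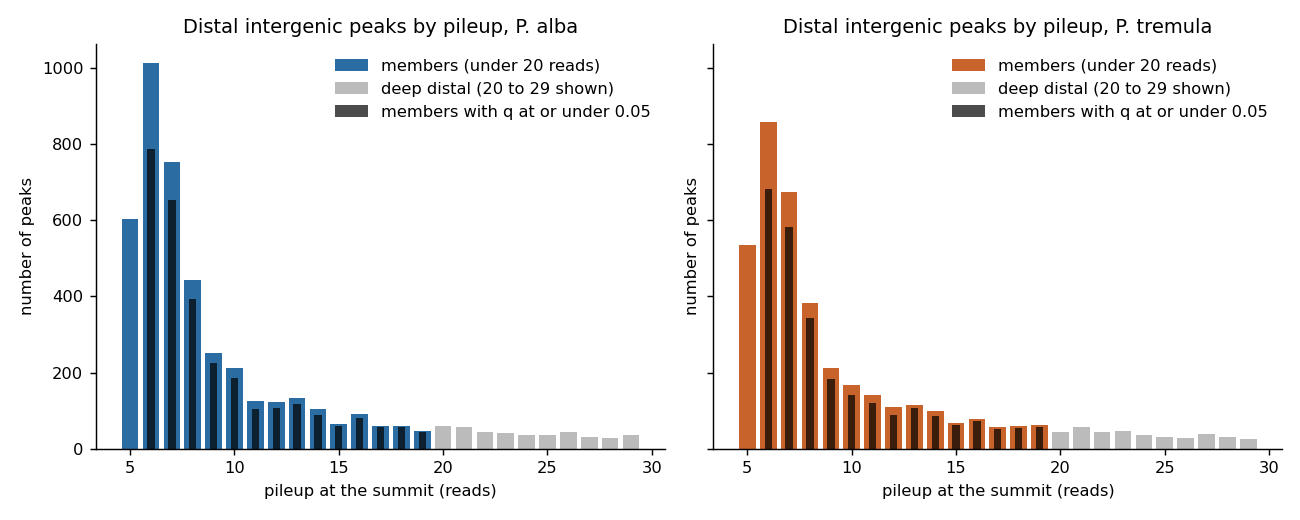
Number of distal intergenic peaks (y axis) at each pileup in reads (x axis) on P. alba (left) and P. tremula (right). Coloured bars are the shallow distal peaks, grey bars the deep distal peaks of 20 to 29 reads, and the narrow black bars the shallow peaks with q at or under 0.05, of which there are 0 at 5 reads.

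The fold over local background followed the height in steps. The background behind each fold, recovered from pileup and fold, lay at its floor of 0.989 reads in 52.0% of P. alba members and at 0.985 reads in 51.0% of P. tremula members. Over all P. alba peaks the share at the floor was 58.9%. At that floor a peak of 5 reads has a fold of 3.02 on both subgenomes, and a peak of 6 reads has 3.52 on P. alba and 3.53 on P. tremula. These last values were also the median folds of all members, so the median fold is that of a 6-read summit over the lowest background. The share at the floor dropped with height, from 98.3% of the P. alba members of 5 reads to 28.7% of those of 9 reads and 12.7% of those of 10 reads. On P. tremula the shares at these heights were 97.2%, 26.4% and 15.5%. Taller members therefore mostly lay over a raised local background, and the median fold did not climb steadily with height. At 5 to 6, 7 to 9, 10 to 14 and 15 to 19 reads it was 3.25, 4.02, 3.69 and 3.66 on P. alba, and 3.26, 4.03, 3.58 and 3.60 on P. tremula.

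The caller's q value, the false discovery rate attached to each peak, was at or under 0.05 for 2961 P. alba members (72.4%) and 2630 P. tremula members (72.7%). Over all peaks the shares were 72.6% and 72.9%. None of the members of 5 reads reached it: their q was 0.143 on P. alba and 0.148 on P. tremula. Among those of 6 reads it was reached by 77.7% of P. alba and 79.3% of P. tremula members, with a lowest q of 0.0365 and 0.0377. Members were short, with lengths of 77 to 640 bp (median 120) on P. alba and of 81 to 638 bp (median 123) on P. tremula.

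The 5 members of highest fold in each list are named by a rule. The height limit bounds these folds. A summit of 19 reads, the tallest admitted, has a fold of 10.1 over the lowest background in either list. The named members are thus tall members over a low background, and not a group apart. Positions are as the deposited tables give them, and their genome build is not stated there. The highest on P. alba, at 28005 to 28169 of scaffold_23, reached a fold of 9.82 at 19 reads. It lay 87.1 kb upstream of the nearest annotated start, and had no partner on P. tremula. On chromosome 5 a P. alba peak of 423 bp (10766072 to 10766494) reached a fold of 9.55 at 18 reads, and the matching P. tremula peak (10762766 to 10763084) 8.06 at 15 reads. A chromosome 18 site stood at 19 reads in both lists, with folds of 9.28 (P. alba, 11900687 to 11900808) and 9.30 (P. tremula, 11901377 to 11901714), 8571 and 8590 bp upstream of the same gene. The 2 chromosome 18 summits thus matched in height and place, while the called lengths were 122 and 338 bp.

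The match was closest on chromosome 12. Both peaks there were 131 bp long and 17 reads high, with folds of 9.05 (P. alba, 13581099 to 13581229) and 9.07 (P. tremula, 13578445 to 13578575). A P. alba peak on chromosome 2 (4778109 to 4778216, 17 reads, fold 9.05) had no partner, and its gene had 0 peaks of any class on P. tremula. The highest P. tremula fold was 10.1, on scaffold_289 (13622 to 13708, 19 reads), and its P. alba partner (13595 to 13681) had 48 reads and a fold of 24.6, which places the partner among the deep distal peaks. A P. tremula peak on scaffold_1425 (1056 to 1231, 19 reads) had a fold of 9.09 and no partner. One on chromosome 11 (5503417 to 5503554, 18 reads) had a fold of 8.84, against 9 reads and 3.25 for its P. alba partner (5504210 to 5504341). Without values per library, these differences carry no error.

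The class name was checked against the gene coordinates in the tables. No member's summit lay inside a gene listed in its table. The summit of the nearest member was 3024 bp from its gene's start on P. alba and 3042 bp on P. tremula, so the class kept its 3 kb distance from starts. It did not keep it from gene ends. For 293 P. alba members (7.16%, 6.39 to 7.99%) and 267 P. tremula members (7.38%, 6.55 to 8.28%) the summit was under 3 kb past the end of the annotated gene, and for 69 and 72 of these it was under 1 kb. Such peaks are distal from the start of a gene but not from the gene.

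Most members lay within several kilobases of a gene. On P. alba the middle 50% of summits lay 4810 to 12413 bp from the start of the annotated gene, with a median of 7125 bp. On P. tremula they lay 4805 to 12380 bp away, with a median of 7065 bp. Distances over 10 kb were found for 32.7% and 33.6% of members, and over 50 kb for 117 P. alba and 121 P. tremula members. Upstream of genes the density of members fell with distance. On P. alba it was 423 per kb at 3 to 4 kb, 204 per kb at 6 to 8 kb and 5.2 per kb at 30 to 50 kb. On P. tremula the same bins held 361, 181 and 4.7 per kb. Downstream it was highest at 4 to 5 kb, with 180 per kb on P. alba and 174 per kb on P. tremula. It was 162 and 138 per kb at 3 to 4 kb, and fell farther out. A downstream distance runs across the gene, so the class itself limits downstream members close to a start to short genes. The 2 sides are therefore not alike in what the class admits. The farthest members lay on scaffold_21, the farthest on P. alba 246.1 kb from the nearest start (855336 to 855490, 10 reads, fold 4.20) and that on P. tremula 277.3 kb (159420 to 159677, 10 reads, fold 5.54), neither with a partner. Another scaffold_21 member, 227.9 kb from its gene on P. alba (208753 to 208837) and 227.8 kb on P. tremula (208882 to 208982), was paired, with 14 and 10 reads. The farthest on a chromosome was on chromosome 2 of P. alba (18638986 to 18639079), 205.9 kb upstream with 10 reads, and the second farthest on P. tremula was also on scaffold_21 (866589 to 866781, 16 reads).

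**Figure D2:**
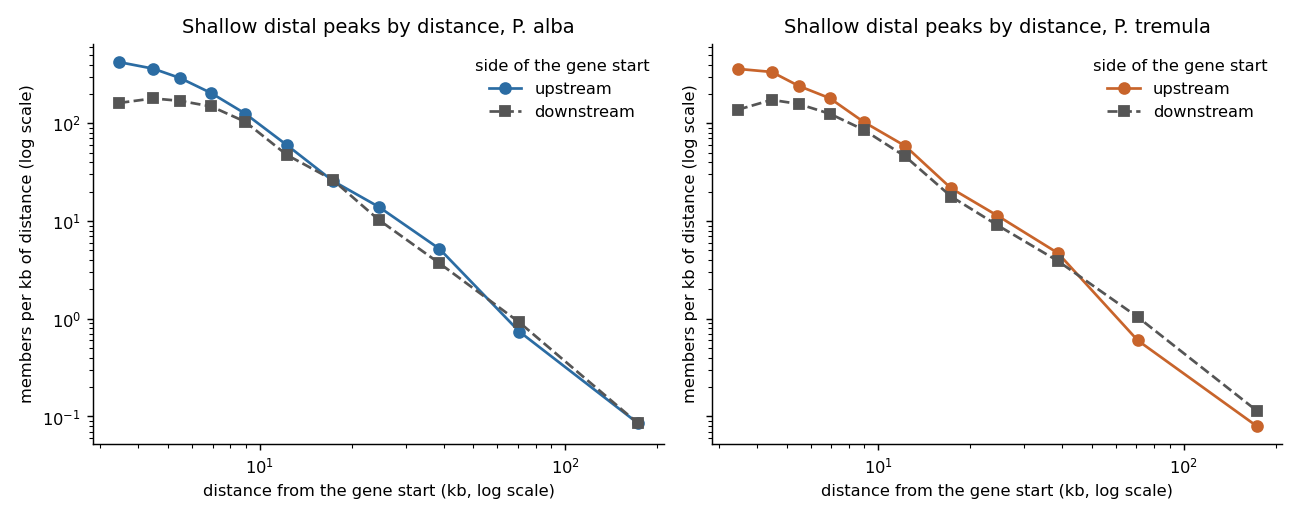
Density of shallow distal peaks per kb (y axis, log scale) against the distance of the summit from the start of the annotated gene in kb (x axis, log scale) on P. alba (left) and P. tremula (right). Upstream peaks outnumber downstream ones up to 15 kb in both lists, most clearly at 3 to 4 kb (P. alba 423 against 162 per kb, P. tremula 361 against 138). Downstream distances run across the gene, so close to the start only short genes can have a distal peak on that side.

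Members lay upstream of their gene more often than deep distal peaks did. The upstream share was 60.2% of members (58.7 to 61.7%) against 51.6% of 1029 deep distal peaks (48.5 to 54.7%) on P. alba (odds ratio 1.42, 95% interval 1.24 to 1.63, Fisher's exact adjusted p = 1.09e-06). On P. tremula it was 59.8% (58.2 to 61.4%) against 53.3% of 972 (50.1 to 56.5%) (odds ratio 1.30, 1.13 to 1.502, Fisher's exact adjusted p = 3.98e-04). Distance moved with this difference, since the median distance was 7125 bp in members and 10940 bp in deep distal peaks on P. alba. At 3 to 5 kb the upstream share on P. alba was 69.7% of members and 58.4% of deep peaks, and at 10 to 20 kb it was 53.7% and 54.4%. On P. tremula the shares were 69.1% and 63.0% at 3 to 5 kb and 55.8% and 55.3% at 10 to 20 kb. At 5 to 10 kb they were 58.5% and 51.2% on P. alba, and 58.3% and 52.1% on P. tremula. At 20 to 50 kb they were 58.0% and 54.3% on P. alba, and 55.2% and 55.1% on P. tremula. Past 50 kb they were 46.2% and 26.1% on P. alba, and 38.02% and 27.16% on P. tremula. The upstream difference thus did not fall steadily with distance. Gene length moved with it too, since a downstream distance runs across the gene: the median annotated gene was 2114 bp for members and 1571 bp for deep distal peaks on P. alba, and 2096 and 1575 bp on P. tremula. Among peaks at least 3 kb from both gene ends, a restriction added after seeing the data, the odds ratio was 1.56 for the P. alba list and 1.45 for the P. tremula list.

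The members were spread over 3088 P. alba and 2843 P. tremula genes, as the annotation assigned them. Of these genes 78.1% and 80.2% had a single member, 464 and 427 had 2, and 213 and 135 had 3 or more. A promoter-class peak, within 3 kb of the start, was found in the same list at 27.1% of these P. alba genes (25.5 to 28.7%) and at 24.8% of the P. tremula genes (23.3 to 26.5%). At genes with a deep distal peak the shares were 25.7% and 20.7%. About 7 in 10 of all genes with any peak had a promoter-class peak (70.9% and 69.9%), a share that includes the genes listed for that peak alone.

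The members were not evenly divided among chromosomes. Chromosome 19, which carries the sex-determining region in several poplars, had the highest share: 200 of its 604 P. alba peaks (33.1%, 29.4 to 37.0%) and 147 of its 510 P. tremula peaks (28.8%, 24.9 to 33.0%) were members. Chromosome 9 had the lowest, with 76 of 679 (11.2%, 8.92 to 13.8%) and 64 of 620 (10.3%, 8.04 to 13.0%). Chromosome 13 was next lowest, with 15.9% and 13.3%, and the 16 other chromosomes lay between 16.3% and 24.9% on P. alba and between 17.3% and 25.2% on P. tremula. Both subgenomes thus had the same chromosomes at either end, though the lists were not treated as independent. Deep distal peaks were also few on chromosome 9, with 14 of 679 P. alba peaks and 13 of 620 P. tremula peaks. On chromosome 19 they were 41 of 604 and 42 of 510. Per shallow promoter-class peak there were 0.769 and 0.684 members on chromosome 19, against 0.162 and 0.150 on chromosome 9. By this ratio chromosome 13 had 0.327 on P. alba, above chromosomes 2 (0.292), 6 (0.306), 8 (0.276) and 10 (0.250). On P. tremula it had 0.268, still the next lowest after chromosome 9.

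**Figure D3:**
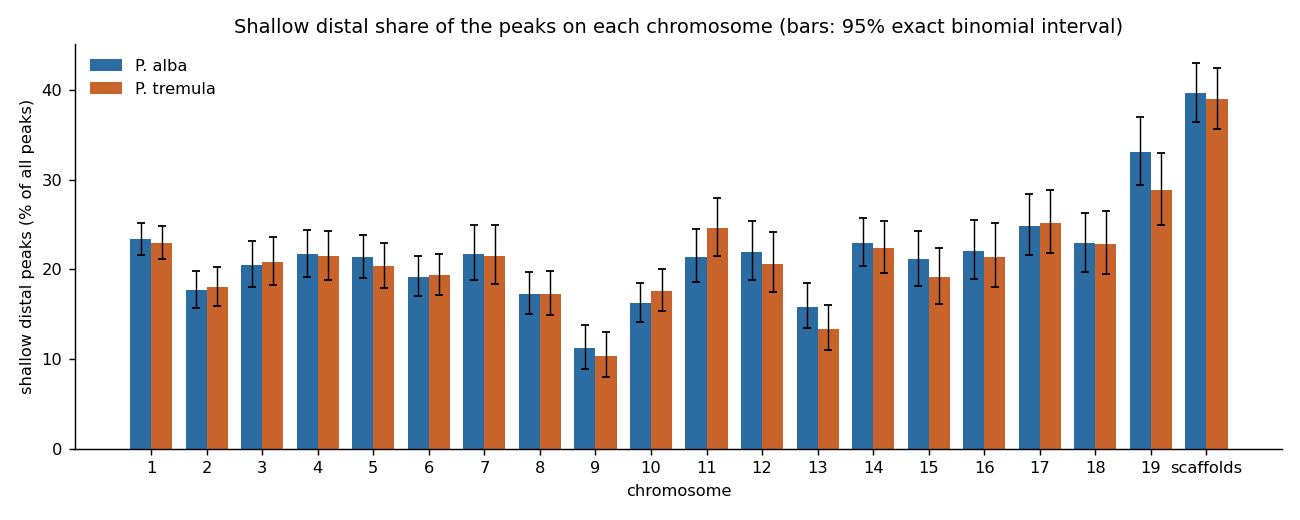
Shallow distal peaks as a percentage of all peaks (y axis) on each chromosome and on the unplaced scaffolds (x axis), for P. alba and P. tremula, with exact 95% binomial intervals as error bars. Chromosome 19 and the scaffolds are highest and chromosome 9 is lowest in both lists.

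On a finer scale, the median 1 Mb window of a chromosome held 9 P. alba members and 8 P. tremula members, and the fullest held 30 and 26. In 59 of 402 windows on each subgenome the members outnumbered the shallow promoter-class peaks. No member was found in 1 P. alba window and 5 P. tremula windows that held a shallow promoter-class peak.

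Unplaced scaffolds, sequences that the assembly does not assign to a chromosome, held members more often than shallow promoter-class peaks. Of all peaks, they held 892 of 18975 on P. alba (4.70%) and 822 of 17040 on P. tremula. The shares on P. alba were 8.65% of members (7.81 to 9.55%) and 2.15% of 10580 shallow promoter-class peaks (odds ratio 4.32, 3.64 to 5.12, Fisher's exact adjusted p = 6.56e-64). On P. tremula they were 8.87% of members (7.97 to 9.85%) and 2.22% of 9460 (odds ratio 4.29, 3.59 to 5.13, Fisher's exact adjusted p = 5.74e-58). Deep distal peaks were on scaffolds more often still, so that members were lower by this comparison: 8.65% against 18.2% on P. alba (odds ratio 0.426, 0.352 to 0.517, Fisher's exact adjusted p = 1.96e-16) and 8.87% against 18.7% on P. tremula (odds ratio 0.423, 0.347 to 0.515, adjusted p = 4.94e-16). Among the members themselves the scaffold share was 5.94% at 5 to 6 reads, 7.32% at 7 to 9 reads, 15.1% at 10 to 14 reads and 14.1% at 15 to 19 reads on P. alba, and 4.95%, 7.64%, 16.8% and 15.2% on P. tremula. The members on scaffolds were spread over 105 and 111 scaffolds, with most on scaffold_20 (24 and 20 members).

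Many members had another peak close by, but on P. alba a smaller share than of all peaks. Of all P. alba peaks, 47.2% had another summit within 5 kb. Within 5 kb, 43.1% of P. alba members (41.6 to 44.7%) and 39.7% of P. tremula members (38.1 to 41.3%) had the summit of another peak of any class. The nearest such peak was itself a member in 65.3% of these cases on P. alba and 64.2% on P. tremula, a deep distal peak in 13.7% and 14.3%, and a promoter-class peak in 16.7% and 17.6%. Fewer members than deep distal peaks had a neighbour, at 43.1% against 55.8% on P. alba (odds ratio 0.601, 0.524 to 0.690, Fisher's exact adjusted p = 7.57e-13) and 39.7% against 52.0% on P. tremula (odds ratio 0.608, 0.527 to 0.701, adjusted p = 1.28e-11). The share rose with height among the members, with 35.7% at 5 to 6 reads and 57.4% at 15 to 19 reads on P. alba and 32.4% and 52.0% on P. tremula.

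The comparison with shallow promoter-class peaks gave a small difference that depended on the settings. Neighbours within 5 kb were found for 43.1% of members against 46.2% on P. alba (odds ratio 0.885, 0.823 to 0.951, Fisher's exact adjusted p = 0.00127) and for 39.7% against 42.1% on P. tremula (odds ratio 0.903, 0.835 to 0.976, adjusted p = 0.0113). With a 2 kb distance the odds ratios were 1.04 (Fisher's exact adjusted p = 0.455) and 1.00 (adjusted p = 0.924), and among peaks with q at or under 0.05 they were 1.03 and 1.02. With a 10 kb distance they were 0.839 and 0.828, and with a border of 10 reads 0.765 and 0.793, each past the threshold.

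Some runs of members were dense. The fullest 100 kb stretch of P. alba was on chromosome 1, where 10 members had summits between 28398666 and 28453060, with 5 to 9 reads and folds of 2.65 to 4.02. Of these 10 members, 6 had a P. tremula partner, and 6 promoter-class peaks lay in the same stretch. The fullest of P. tremula was on chromosome 4, where 10 members had summits between 12622434 and 12713634, with 6 to 19 reads and folds of 2.38 to 6.88. Of these, 3 had a P. alba partner and 0 promoter-class peaks lay among them. The P. alba run thus lay among promoter-class peaks and the P. tremula run in a stretch without any. A second P. tremula stretch also held 10 members, and the first was taken by rule. The promoter-class peaks of the second are not given, so the contrast is between single runs and not between the lists.

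The gene with most members on P. alba was Potri.004G128500 on chromosome 4, with 8 members at 9052 to 45781 bp past its start. Their heights were 8, 16, 18, 10, 8, 10, 7 and 8 reads in order of position from 13672981 to 13709710, and 1 of the 8 had a partner. On P. tremula this gene had 2 members. On P. tremula 2 genes had 8 members each: Potri.003G010500 on chromosome 3, with 3 members assigned to it on P. alba, and Potri.T005700 on scaffold_21, with 2. The members of Potri.003G010500 had 6 to 17 reads and lay on both sides of the gene, from 948388 to 1100239, and 3 of the 8 were paired. Those of Potri.T005700 had 5 to 19 reads over 257586 bp, and 2 of the 8 were paired. Neither Potri.004G128500 nor Potri.003G010500 had a promoter-class peak in the same list, while Potri.T005700 had 3. The files pair none of these identifiers with a gene name.

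The last comparison was between the subgenomes. Peaks of the 2 lists were called partners when they had the same annotated gene and their summits' distances from its start differed by at most 100 bp. A partner was found for 1850 P. alba members (45.2%) and 1854 P. tremula members (51.2%), against 66.3% and 73.8% of all peaks. Shallow promoter-class peaks had one more often. On P. alba the shares were 45.2% of members (43.7 to 46.8%) and 74.1% of shallow promoter-class peaks (73.2 to 74.9%), with an odds ratio of 0.289 (0.268 to 0.311, Fisher's exact adjusted p = 6.76e-232). On P. tremula they were 51.2% of members (49.6 to 52.9%) and 82.9% of shallow promoter-class peaks (82.1 to 83.6%), with an odds ratio of 0.217 (0.199 to 0.236, Fisher's exact adjusted p = 5.08e-279).

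Height and distance both moved with the partner share. Among members of 5 to 6, 7 to 9, 10 to 14 and 15 to 19 reads it was 51.9%, 49.6%, 25.7% and 34.7% on P. alba and 59.8%, 55.2%, 30.9% and 38.7% on P. tremula. In each of these classes the shallow promoter-class share was higher, at 73.7%, 78.2%, 60.6% and 49.7% on P. alba and 84.2%, 84.9%, 63.9% and 64.1% on P. tremula. With distance from the gene start, the share of members with a partner fell to 17.1% past 50 kb on P. alba, against 58.0% at 3 to 5 kb, and to 20.7% against 64.0% on P. tremula. Shallow promoter-class peaks at 2 to 3 kb had partners at 71.5% and 80.4%. The pairing asks for the same tolerance at every distance, and its part in this fall was not tested.

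**Figure D4:**
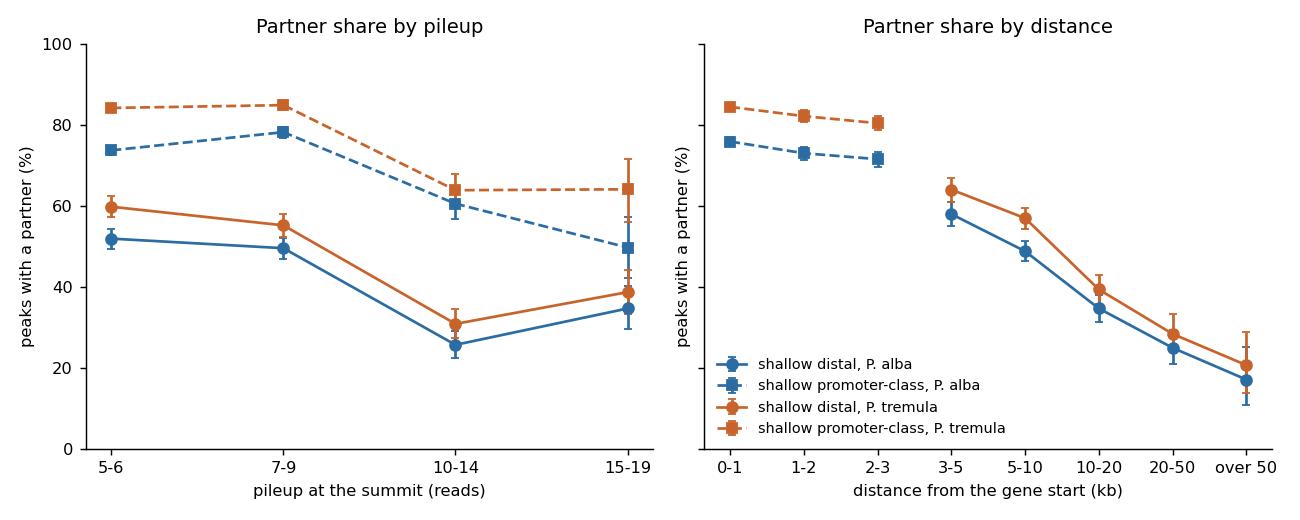
Percentage of peaks with a partner on the other subgenome (y axis) by pileup in reads (left) and by distance from the gene start in kb (right), for shallow distal peaks (solid lines, circles) and shallow promoter-class peaks (dashed lines, squares) of each subgenome, with exact 95% binomial intervals. Shallow distal peaks are lower in every pileup class. The distance ranges of the classes do not overlap, since promoter-class peaks end at 3 kb.

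When positions were instead carried over from the nearest gene found in both lists, a rule added after seeing the data, a P. tremula peak of any class lay within 1000 bp of the carried position of 57.5% of P. alba members, and a P. alba peak within 1000 bp of that of 63.5% of P. tremula members. It found one for 504 of the 2242 P. alba members without a partner (22.5%) and for 442 of the 1764 P. tremula ones (25.1%). This rule also has a wider tolerance than the 100 bp of the pairing. With the same-gene pairing itself at 1000 bp, 54.0% of P. alba and 60.9% of P. tremula members had a partner. At 50 bp the shares were 35.0% and 40.0%. The odds ratios against shallow promoter-class peaks stayed under 1 in each of the 10 alternatives run, between 0.190 and 0.357 on P. alba and between 0.153 and 0.284 on P. tremula. The lowest, 0.190 and 0.153, came from genes with a peak in both lists. That restriction keeps every peak with a partner and drops only peaks without one, so it is not independent of the outcome. Carried positions also start from such genes.

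Against deep distal peaks the partner share gave no stable direction. It was 45.2% of members against 50.1% of deep distal peaks on P. alba (odds ratio 0.820, 0.715 to 0.941, Fisher's exact adjusted p = 0.00539) and 51.2% against 51.7% on P. tremula (odds ratio 0.980, 0.851 to 1.13, adjusted p = 0.800). With 10 reads in place of 20 as the border between shallow and deep, the direction turned, to 50.8% against 39.3% on P. alba (odds ratio 1.59) and 57.6% against 42.7% on P. tremula (odds ratio 1.82). The low shares at 10 to 19 reads, given above, moved from one side of the border to the other. By distance, the shares of members and deep distal peaks were 58.0% and 61.3% at 3 to 5 kb, 34.7% and 47.6% at 10 to 20 kb and 17.1% and 40.2% past 50 kb on P. alba. On P. tremula they were 64.0% and 63.0%, 39.4% and 50.4%, and 20.7% and 39.5%. By positions carried over within 1000 bp, in place of partners, the share was lower for members in both lists. It was 57.5% against 73.1% of deep distal peaks on P. alba (odds ratio 0.499) and 63.5% against 75.2% on P. tremula (odds ratio 0.573). Carrying over counts any peak within reach, and deep distal peaks were the more crowded in their own list. A summit within 2 kb was found for 39.7% of them against 24.7% of members on P. alba. On P. tremula it was 36.2% against 21.4%. The part of this crowding in the carried shares was not tested.

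Medians hide the relation of partner share to height given above: the median pileup was 7 reads in both on P. alba, and 7 reads with a partner against 8 without on P. tremula. The local background was at its floor in 65.2% of P. alba members with a partner and 41.0% of those without, and in 63.3% and 38.1% on P. tremula. Scaffolds held 3.89% and 4.15% of members with a partner, against 12.6% and 13.8% of those without. Of the members without a partner, 67.2% on P. alba and 68.7% on P. tremula were annotated to a gene that had some peak in the other list, and 54.9% and 58.1% to one that had a distal peak there. These counts take no account of how far the other peak lay from the member's own place.

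A partner shares the gene and nearly the distance from its start, so the pairing itself all but sets its class as distal. It was itself a shallow distal peak for 96.2% of the paired P. alba members and 96.0% of the paired P. tremula members. In 57 and 68 cases it was a distal peak of 20 reads or more, and in 13 and 6 cases it fell in another class, 10 and 2 of them in the promoter class. The folds were close: the log2 fold on P. alba minus that of its partner had a median of -0.00 over paired P. alba members, a 5th to 95th percentile of -0.28 to 0.31 and an SD of 0.21. Of the 1780 pairs of shallow distal peaks, 1261 (70.8%, 68.7 to 72.9%) had the same pileup in both lists, 252 had more reads on P. alba and 267 more on P. tremula, and 66 differed by 5 reads or more. Whether the lists rest on the same libraries is not stated in them, and they were not treated as independent. Over all paired members of a list, identical pileups made up 68.6% on P. alba and 68.3% on P. tremula. Members span only 5 to 19 reads, and the part of this narrow range in the equal heights was not tested. On P. alba, identical pileups made up 83.7% of paired shallow promoter-class peaks, which are also under 20 reads. They made up 28.3% of paired deep distal peaks, which span a wider range.

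**Figure D5:**
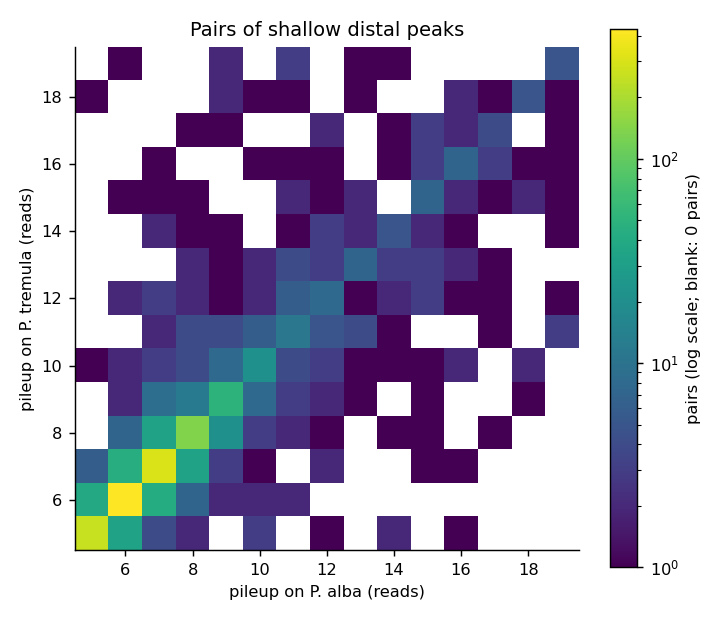
Number of pairs of shallow distal peaks (colour, log scale) by pileup in reads on P. alba (x axis) and on P. tremula (y axis). Most of the 1780 pairs lie on the diagonal, where both heights are equal.

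A few pairs were far apart in height, and those with the deepest partner are named here after their values were seen. On chromosome 8 a P. tremula member (19002438 to 19002583) of 16 reads and fold 3.63 was matched with a P. alba peak (19001482 to 19001642) of 902 reads and fold 6.19. Their summits were 12062 and 12069 bp past the start of the same gene. On scaffold_77 a P. alba member (191486 to 191569) of 8 reads and fold 4.16 was matched with a P. tremula peak (191606 to 191776) of 78 reads and fold 2.88. In the first pair the deeper peak had the higher fold and in the second the lower one.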

How the data were processed

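The data are 2 peak tables, 1 per subgenome. The submitters' processing notes name MACS2 2.2.7.1, ChIPseeker 1.18.0 and BWA 0.7.17.2. The build, calling options, control and pooling are not stated in the labels. As deposited, and per the file headers, the values are the summit pileup (a coverage signal), a fold enrichment ratio, −log10 p and q values, positions and gene annotation. The read depth of each library is unknown. Each peak stood in 2 rows and was counted once.

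Background was recovered as (pileup + 1) / fold − 1, and called at its floor within 0.01 reads. Distances and sides were computed from summits and gene coordinates. Partners were assigned closest first, each peak used once. Shares carry exact 95% binomial intervals and were compared by Fisher's exact test, with normal-approximation intervals for odds ratios (Python 3.11.15, SciPy 1.17.1, pandas 2.3.3). Pairing and tests were checked on simulated data. Carrying positions over used 10851 genes found in both lists on the same sequence and strand with lengths within 10%.

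Members, comparisons and named peaks (the 5 highest folds, the 3 farthest, the densest 100 kb, the genes with most members and the chromosomes of highest and lowest share) were chosen with earlier results of these data known. The ChIP and input libraries could not be compared, since the tables give no value by library and the tag in their peak names matches no label.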

Additional observations from a re-analysis of the deposited data

How the results depend on the processing

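Of 100 alternative values for 18 results, 79 kept their direction and their side of the threshold or stayed within the limit set (for counts of members, 1.5 times), 6 shares moved, 4 comparisons dropped below the threshold, 2 newly passed it and 9 turned. The cause was not tested. Member counts stayed within 1.5 times in each alternative. For partners against deep distal peaks, on P. alba and P. tremula, the odds ratios turned to 1.59 and 1.82 with a border of 10 reads and to 1.05 and 1.21 (Fisher's exact adjusted p = 0.531 and 0.0162) at genes with a peak in both lists. On the 19 chromosomes they were 0.873 (no longer past the threshold) and 1.02 (turned). On P. tremula the comparison newly passed at 0.829 with a border of 30 reads and at 0.573 with carried positions. For neighbours against shallow promoter-class peaks, odds ratios turned to 1.04 and 1.00 within 2 kb and to 1.03 and 1.02 at q at or under 0.05. They missed the threshold at 0.910 and 0.851 for peaks of 10 to 19 reads, and at 0.936 on P. tremula with a border of 30 reads. The share of identical pileups was 71.4% and 70.5% with a pairing tolerance of 50 bp, 65.4% and 65.2% with 200 bp, and 60.9% in each list with 1000 bp. Peaks of 10 to 19 reads, genes in both lists, carried positions, distal neighbours only and the 3 kb distance from gene ends were chosen after seeing the data. No paired analysis was possible because no column names a library and the tag in the peak names matches no label. Leaving out a replicate was likewise not possible. Over the lowest background, the step from 5 to 6 reads moves a peak across the q threshold. At 6 and 7 reads a raised local background can do so.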
